A study of Mus musculus with 12 samples.

Results

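The Trav12 family, long known as the Vα8 family, is a group of closely related variable (V) genes of the mouse T cell receptor (TCR) α chain. Its members were found by name: a clonotype of the α chain, whose constant gene is listed as TRAC, belonged to the family when its listed V-region value began with V12-, V12D- or V12N-. This took 61527 of the 509702 TRAC clonotypes listed over the 12 libraries, with 135023 of 1145380 TRAC UMIs, or 11.8%. UMIs are the molecular barcodes that mark single cDNA molecules, and only those supported by at least 3 reads were counted. A clonotype is 1 listed combination of V and J region with a nucleotide sequence of the CDR3, and clonotypes were counted separately in each library.

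The libraries came from CD8+ T cells selected with CD8 microbeads from tumors, spleens and tumor-draining lymph nodes (tdLNs) of wild-type C57BL/6 mice bearing MTCQ1-2 (Q1-2) oral cancer cells, an orthotopic model of head and neck squamous cell carcinoma. The study describes CD8+ cells for all of these tissues, but titles name CD8 only for tumor and spleen libraries, not for tdLN libraries. A difference in selection or purity would coincide with tissue in every comparison with tdLNs, and it was not tested. Mice were given BF10, in which human IL-10 is fused to an antibody against CSF-1R (the receptor that macrophages need for survival), that antibody alone (αCSF1R), IL-10-Fc (interleukin-10 fused to an Fc) or a control IgG, in 3 doses at 3-day intervals. The labels give 30 mg/kg for every agent, whereas the study's methods list doses that differ by agent. RNA of 3 mice was mixed, 100 ng went into each library, and each of the 12 combinations of tissue and treatment was sequenced as 1 library, so no condition has a replicate. The 4 libraries of a tissue were compared with the 4 of another tissue, although they differ in treatment, and libraries of 1 treatment may share mice, since the labels do not tie them to animals. RNA was measured, so that more cells with a Trav12 chain and more TCR RNA per cell cannot be told apart.

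An α chain is built in the thymus by joining 1 V gene to 1 J gene, and the joint encodes the CDR3 loop that contacts the peptide held by the MHC molecule. The α locus can rearrange again on the same chromosome, each time joining a V gene farther out to a J gene farther in, so J genes near the V side tend to be used in early joints and those on the far side in late ones. In C57BL/6 mice part of the V region of the locus is repeated, and the repeated copies of a gene carry a D or an N in their names. Trav12 genes are thereby present as Trav12-1 to Trav12-3 without a letter, here called undesignated, and as D and N copies of each.

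In the GRCm38 assembly the 9 functional Trav12 genes lie on chromosome 14 on the plus strand. The D copies come first (Trav12d-1 at chr14:52844465-52845041, Trav12d-2 at chr14:52915799-52916426 and Trav12d-3 at chr14:52929789-52930282), and the N copies follow (Trav12n-1 at chr14:53155512-53156088, Trav12n-2 at chr14:53226773-53227400 and Trav12n-3 at chr14:53240745-53241244). The undesignated genes lie nearest to the J genes (Trav12-1 at chr14:53538191-53538738, Trav12-2 at chr14:53616315-53616914 and Trav12-3 at chr14:53621657-53622245). The J genes begin at position 54155005. The last 50 bases of the V exons show how little of the CDR3 tells the genes apart, and the capitals mark the bases that encode the start of the CDR3.
Trav12d-1, same in Trav12n-1: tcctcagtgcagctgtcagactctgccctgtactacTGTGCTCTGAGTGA
Trav12d-2, same in Trav12n-2: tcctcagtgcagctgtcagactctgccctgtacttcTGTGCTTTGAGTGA
Trav12-2: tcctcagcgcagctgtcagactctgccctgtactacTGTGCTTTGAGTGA
Trav12n-3, same in Trav12d-3, Trav12-1 and Trav12-3: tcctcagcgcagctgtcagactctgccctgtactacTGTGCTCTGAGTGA
The whole V exons of each D gene and its N counterpart are identical in this assembly (edit distance 0 for all 3 pairs), whereas Trav12-1, Trav12-2 and Trav12-3 differ from their D counterparts by 15, 14 and 10 bases.

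The assignments in the files followed these sequences only in part. Of the 24 V-region values of the family, 7 named 1 gene, with 88.8% of the family's UMIs, and 17 listed several genes between which a read could not be placed. The third codon of the CDR3 is TTG or CTG in the germline genes above. The start TGTGCTTTG was found in 73.5% of the clonotypes listed as V12D-2 and in 85.6% of those listed as V12N-2, but in 0.422% of V12N-3, 0.635% of V12-3 and 0.0259% of V12D-1. Clonotypes listed as V12-2 never had it (0%) and had TGTGCTCTG in 90.1%, although the GRCm38 gene has TTG. V12D-2 and V12N-2 were listed apart although their exons are identical in GRCm38, and how they were told apart is not given in the sources used here. V12D-3 was listed with 6 UMIs and V12N-3 with 39143, although their exons are identical there too. Copy names below are therefore those of the files.

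Depth differed between libraries. TRAC UMIs ranged from 23650 (αCSF1R tumor) to 137078 (IL-10-Fc tdLN), so that the share a count of 3 UMIs stands for ran from 0.00219% to 0.0127%. The αCSF1R and control IgG tumor libraries stood apart with 2430 and 9468 TRAC clonotypes, against 38233 to 63371 in the other libraries. UMIs with at least 7 reads made up only 8.31% and 6.49% of TRAC UMIs in the αCSF1R and BF10 tdLN libraries and 30.8% to 73.3% elsewhere. Chains of γδ T cells (TRGC and TRDC), which mark cells outside the αβ lineage, held 0.873% to 8.93% of UMIs in tumors, 0.677% to 2.30% in spleens and 4.96% to 6.34% in tdLNs, and the invariant NKT chain (Trav11 with Traj18) held at most 0.586% of TRAC UMIs. Their part in the results was not tested.

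Trav12 was among the most used α chain families of these CD8+ T cells. With a mean of 11.8% of TRAC UMIs (range 8.99% to 14% over 12 libraries) it ranked number 3 of 21 families. Trav7, at 15.4%, was above it in 12 of 12 libraries and Trav14, at 14.7%, in 9 of 12. Trav6, at 10.7%, was below it in 7 of 12, and Trav9 (8.15%) and Trav13 (7.63%) in 11 of 12. The ranges of Trav14 (8.97% to 17.2%) and Trav6 (6.94% to 13%) overlapped with that of Trav12. Its order against Trav6 changed with the tissue: all 4 spleen libraries had more Trav12 than Trav6, and all 4 tdLN libraries had less. Trav12 was above Trav14 in the control IgG and αCSF1R tumors and the BF10 spleen, so that order varied within tissues. In the control IgG tumor the shares were nearly equal (8.99% and 8.97%).

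Spleens held more Trav12 than tdLNs. In spleens the family took 12.4% of TRAC UMIs after control IgG (95% Wilson interval 12.2% to 12.6%), 12.8% after IL-10-Fc (12.6% to 13%), 12.0% after αCSF1R (11.8% to 12.1%) and 13.5% after BF10 (13.3% to 13.7%). In tdLNs it took 10.1% (9.93% to 10.3%), 10.9% (10.7% to 11%), 10.04% (9.82% to 10.3%) and 10.8% (10.5% to 11%) in the same order. The groups did not overlap, with a mean of 12.7% ± 0.658 (SD, n = 4) against 10.4% ± 0.426 (SD, n = 4). The exact two-sided permutation test over libraries gave p = 0.0286, the smallest it can give with 4 against 4, and 0.12 after Benjamini-Hochberg adjustment over 21 families and 3 pairs of tissues. Of the 21 families, 10 (47.6%) did not overlap between spleens and tdLNs, so a separation of this kind was common among TRAV families.

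Tumors varied more than the lymphoid tissues. The family took 8.99% of TRAC UMIs after control IgG (8.79% to 9.19%), 12.4% after IL-10-Fc (12.2% to 12.6%), 14% after αCSF1R (13.6% to 14.4%) and 13.2% after BF10 (13% to 13.4%). The control IgG tumor was thus the lowest of all 12 libraries and the αCSF1R tumor the highest. The mean of 12.1% ± 2.21 (SD, n = 4) differed from spleens by less than this spread (exact permutation p = 0.83, adjusted 0.949), where 4.76% of families did not overlap. Against tdLNs it was p = 0.171 (exact permutation, adjusted 0.386), where 19% of families did not overlap. That difference, of 1.70 percentage points, was 2.64 without control IgG and 0.949 without αCSF1R. Without clonotypes of at least 0.1% of TRAC UMIs it was 3.03, and tumors and tdLNs did not overlap (exact permutation p = 0.0286, adjusted 0.0818). The share of families that did not overlap in that setting was not counted.

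Counted as clonotypes, where a large clone weighs as much as a small one, tumors moved next to or above spleens. The family held 13.1%, 12.9%, 14.8% and 13.1% of TRAC clonotypes in tumors, in the order of treatments just used. In spleens it held 12.5%, 12.6%, 12.0% and 13.1%, and in tdLNs 10.7%, 11.4%, 10.5% and 11.2%. Tumors and spleens were each above every tdLN library (exact permutation p = 0.0286 and adjusted p = 0.1 for both), which 42.9% of families did in 1 direction or the other for tumors and 42.9% for spleens. Tumors against spleens gave p = 0.0571 (exact permutation, adjusted 0.129), with 0% of families not overlapping. The difference between tumors and spleens, 0.911 percentage points, was 0.290 without the αCSF1R libraries, of which the tumor had 359 Trav12 clonotypes. The tumor mean was 13.4% ± 0.894, the spleen mean 12.5% ± 0.436 and the tdLN mean 10.9% ± 0.428 (SD, n = 4 each). Shares within a library sum to the whole, so that no family can move alone.

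**Figure D1:**
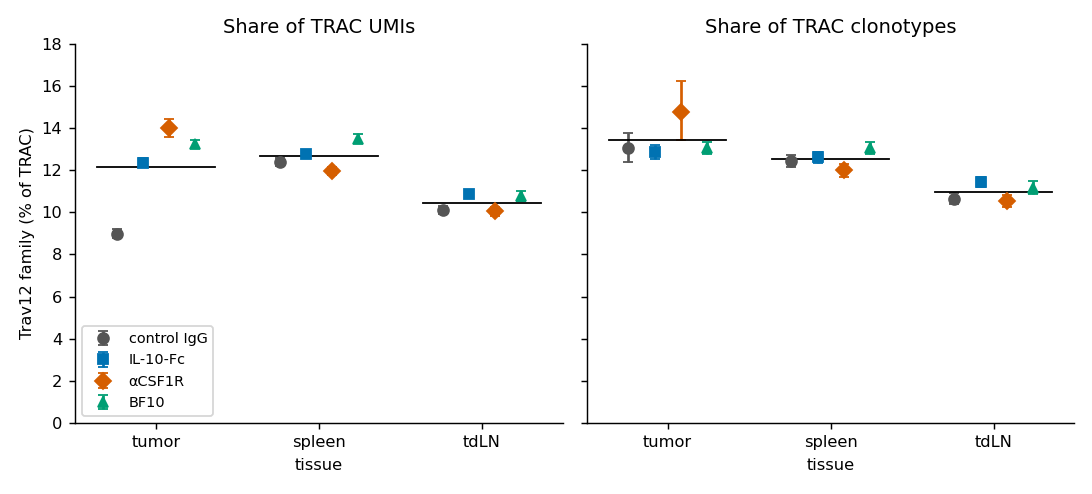
Trav12 family share of TRAC UMIs (left) and of TRAC clonotypes (right) in percent, by tissue; each point is 1 library, its marker gives the treatment, bars are 95% Wilson intervals (counting error only) and black lines are means of 4 libraries. The tdLN libraries sit between 10.04% and 11.4% in both panels, and the control IgG tumor is low in UMIs (8.99%) but not in clonotypes (13.1%).

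The control IgG tumor had less Trav12 than each treated tumor when UMIs were counted, but not when clonotypes were. Relative to control IgG, the family's share of TRAC UMIs in tumors was 1.38 times as high after IL-10-Fc (95% interval 1.34 to 1.41, counting error only), 1.56 times after αCSF1R (1.5 to 1.62) and 1.47 times after BF10 (1.43 to 1.51). Counted as clonotypes, the ratios were 0.983, 1.13 and 0.999. Without clonotypes that held at least 0.1% of a library's TRAC UMIs they were 0.989, 1.14 and 1.02. Shifts of this size were common in tumors: 36.8%, 47.4% and 47.4% of the 19 TRAV families with at least 100 UMIs in both libraries together moved by at least 1.5-fold in these 3 comparisons, Trav12 only in that with αCSF1R. In spleens the ratios lay between 0.964 and 1.09 and in tdLNs between 0.993 and 1.07. With 1 library per condition, none of these ratios has a replicate check and none was tested.

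Large Trav12 clonotypes, of at least 0.1% of TRAC UMIs, were found in 3 of 12 libraries. In the control IgG tumor they held 41.7% of the UMIs of other TRAC chains but 11.2% of those of the Trav12 family (7 clonotypes). In the αCSF1R tumor the shares were close, at 52.8% of other chains and 49.2% of the family (10 clonotypes). The IL-10-Fc and BF10 tumors had no Trav12 clonotype of that size (0%), against 5% and 0.435% of other chains. Of the spleens and tdLNs, the αCSF1R spleen alone had one, with 1.10% of the family's UMIs. The 10 of the αCSF1R tumor included 4 listed as V12N-2 (987 UMIs) and 4 as V12D-2 (576 UMIs), and 5 of the 10 were listed in no other library. Of the 7 in the control IgG tumor, 2 were listed nowhere else. Other TRAC chains are pooled over families here, and in that tumor these differed. Trav9 held 13.6% of TRAC UMIs but 9.07% of clonotypes, and Trav5 5.85% but 3.25%. Trav14 (8.97% and 11.5%) and Trav3 (4.50% and 6.16%) had, like Trav12, the lower share in UMIs. Large clonotypes were not counted family by family, so the contrast is not shown to be particular to Trav12.

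**Figure D2:**
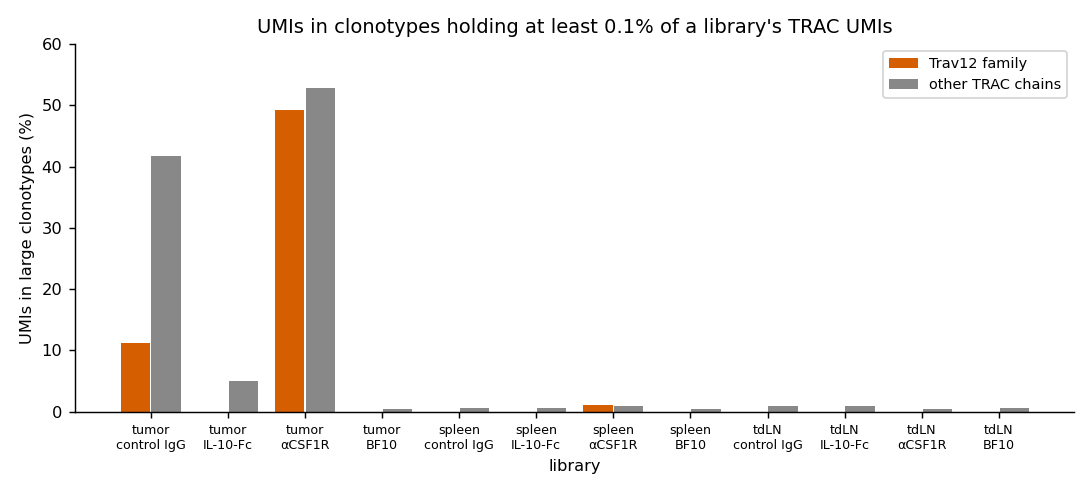
Percent of UMIs (linear axis from 0) in clonotypes that hold at least 0.1% of a library's TRAC UMIs, for the Trav12 family and for other TRAC chains (all other families pooled), in each of the 12 libraries. The 2 bars differ most in the control IgG tumor (11.2% against 41.7%) and are both near 50 in the αCSF1R tumor (49.2% and 52.8%).

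The clonotype with the most UMIs in each tumor is shown as the CDR3 that the family contributes there, with the bases that match a germline Trav12 end in capitals.
Control IgG tumor, V12D-2 with Traj32: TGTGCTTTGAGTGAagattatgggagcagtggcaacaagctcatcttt
IL-10-Fc tumor, V12N-2 with Traj7: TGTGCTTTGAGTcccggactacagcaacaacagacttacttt
αCSF1R tumor, V12N-2 with Traj6: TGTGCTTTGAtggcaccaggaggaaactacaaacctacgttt
BF10 tumor, V12N-3 with Traj9: TGTGCTCTGAtgggctacaaacttaccttc
The αCSF1R clonotype, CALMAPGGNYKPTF, had 796 UMIs, or 3.37% of TRAC UMIs (95% Wilson interval 3.14% to 3.60%) and 24.0% of the family's UMIs. It was found with 1 UMI in the tdLN of the same treatment and in none of the other 10 libraries, with 6 bases between the ends that match V and J. Without the largest Trav12 clonotype of each library, the ratio of αCSF1R to control IgG tumors was 1.26 in place of 1.56. The control IgG clonotype of 16 residues had 239 UMIs, 0.299% of TRAC (0.263% to 0.339%). It was also listed in the IL-10-Fc tumor, with 21 UMIs, and in no spleen or tdLN. The IL-10-Fc clonotype, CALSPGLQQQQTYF, had 93 UMIs, 0.0941% (0.0768% to 0.115%), in that library alone. The BF10 clonotype, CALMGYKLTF, was of another kind: it had 64 UMIs (0.0544%, 0.0426% to 0.0694%), no base between the V and J matches, and was listed in 12 of 12 libraries.

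In spleens and tdLNs no Trav12 clonotype held more than 0.131% of TRAC UMIs. That share belonged to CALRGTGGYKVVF (V12N-3 with Traj12), with 144 UMIs in the αCSF1R spleen and 10 in the tdLN of the same treatment. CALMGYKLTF led the IL-10-Fc and BF10 spleens with 52 and 68 UMIs, and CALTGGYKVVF (V12N-3 with Traj12) led the control IgG spleen with 50. In tdLNs the leading clonotypes had 40 UMIs after control IgG (V12D-2 with Traj17), 38 after IL-10-Fc (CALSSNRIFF, V12D-2 with Traj31), 21 after αCSF1R (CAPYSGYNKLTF, V12N-3 with Traj11) and 31 after BF10 (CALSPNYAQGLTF, V12N-3 with Traj26). Of these 4, that of IL-10-Fc was listed in 1 library and that of BF10 in 2.

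Most Trav12 clonotypes were seen once, and a few everywhere. Of 47618 distinct clonotypes of the family, 84.8% were listed in 1 library and 6 in all 12. The 5 with the highest mean share among those 6 are given because they recur in every condition.
V12N-3 with Traj23, 355 UMIs: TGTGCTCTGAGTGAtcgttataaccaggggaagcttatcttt
V12N-3 with Traj9, 372 UMIs: TGTGCTCTGAtgggctacaaacttaccttc
V12N-3 with Traj23, 255 UMIs: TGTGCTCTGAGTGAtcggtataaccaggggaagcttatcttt
V12N-2 with Traj22, 181 UMIs: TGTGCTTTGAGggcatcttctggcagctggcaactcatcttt
V12N-3 with Traj23, 114 UMIs: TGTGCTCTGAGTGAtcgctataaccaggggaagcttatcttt
The 3 with Traj23 encode the same CDR3, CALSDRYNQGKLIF, and differ from each other by 1 base. In all, 12 nucleotide sequences with that V12N-3 CDR3 were listed, with 1149 UMIs. The first of the 5 had 88 UMIs in the control IgG tumor, which is 0.110% of its TRAC UMIs, and 12 to 36 in the other libraries. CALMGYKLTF had 7 UMIs (αCSF1R tumor) to 68 (BF10 spleen), and the V12N-2 clonotype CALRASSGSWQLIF had 3 (control IgG tumor) to 31 (control IgG spleen).

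Clonotypes that recurred between treatments had simpler joints. The mean number of bases between the parts that match germline V and J was 1.56 to 1.85 over the 12 libraries for Trav12 clonotypes listed with 2 or more treatments of the tissue, and 3.66 to 6.36 for those listed with 1. No base lay between these parts in 26.8% to 33.9% of the former and in 4.48% to 7.91% of the latter. CDR3s averaged 13.2 to 13.3 residues in the recurring clonotypes and 13.5 to 13.8 in the others. These ranges did not overlap in any measure, and the split into recurring and other clonotypes depends on depth.

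The share of clonotypes that recurred was higher for Trav12 than for other TRAC chains in all 4 spleens and lower in all 4 tdLNs, while the direction in tumors changed with the definition of a clonotype. In tumors, 18.6%, 14.1%, 19.2% and 10.4% of Trav12 clonotypes were listed with 2 or more treatments (in the order used above), against 18.5%, 13.5%, 17.3% and 9.99% of other chains. In spleens it was 23.1%, 20.6%, 24.5% and 21.3% against 21.1%, 19.7%, 23.1% and 20.3%. In tdLNs it was 18.6%, 16.9%, 20.3% and 20.3% against 20.5%, 18.3%, 21.5% and 21.9%. The family was higher in 8 of 12 libraries, with a mean difference of 0.181 percentage points (range -1.84 to 1.94, exact sign-flip permutation p = 0.646, adjusted 0.646 over 6 comparisons of the family with other chains or between its copies). All 4 tdLN libraries were below other chains, and all 8 tumor and spleen libraries were above them. With clonotypes defined by J and CDR3 nucleotides alone, 1 of 4 tumor libraries was above them (mean -0.990), and spleens (0.784) and tdLNs (-2.19) kept their direction in 4 of 4. A clonotype with few UMIs is more easily missed in a second library. Clonotypes of 1 UMI averaged 40.1% of the family and 43.1% of other chains in spleens. The averages were 59.9% and 60.1% in tdLNs, and 31.3% and 32.3% in tumors. The part of this in the shares that recurred was not tested.

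Of the V-region values, 9 had a mean of at least 0.1% of TRAC UMIs, and 3 of them made up most of the family. V12N-3 had 3.27% (range 2.03% to 4.15%), V12D-2 had 2.69% (1.94% to 4.26%) and V12N-2 had 2.67% (1.56% to 5.76%). V12-3 followed at 1.03% (0.427% to 1.17%) and V12D-1 at 0.718% (0.444% to 0.945%). The ranges of the first 3 overlapped, and they stood apart from V12-3 in every library.

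The 4 other values listed several genes. V12-2V12-3V12D-1V12D-2V12N-3 had 0.640% (0.293% to 0.844%), V12-1V12N-1 had 0.239% (0.135% to 0.295%), V12-2V12-3V12D-1V12N-3 had 0.220% (0.0551% to 0.298%) and V12-2V12-3V12D-1 had 0.105% (0.0438% to 0.122%). V12-2 alone had 982 UMIs over the 12 libraries and V12D-3 had 6, and the remaining values had up to 786. In the 5-gene value 80.0% of clonotypes had 1 UMI, compared with 37.1% for V12N-3. From 2.60% to 6.02% of distinct J and CDR3 sequences of the family appeared under several V-region values of the family in the same library.

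Spleens and tdLNs did not overlap in 4 of these 9 values. V12N-3 took 3.60%, 3.67%, 3.68% and 4.15% of TRAC UMIs in spleens, lowest to highest, and 2.87% to 3.11% in tdLNs. V12D-2 took 2.75% to 2.94% in spleens and 1.94% to 2.42% in tdLNs. V12N-2 took 2.46% to 2.66% and 2.23% to 2.29%, and V12D-1 took 0.772% to 0.945% and 0.528% to 0.689%. None of these 4 overlapped between the tissues (exact permutation p = 0.0286 each, adjusted 0.183 over 141 values and 3 pairs), where 29.8% of all V-region values did not overlap. Counted as clonotypes, V12-2V12-3V12D-1V12D-2V12N-3 was also apart, making 5 of 9, and with UMIs of at least 7 reads V12D-1 overlapped, leaving 3 of 9. How many of all V-region values did not overlap in these settings was not counted. V12-3, the fifth value that lists 1 gene, averaged 1.08% in spleens and 1.09% in tdLNs (exact permutation p = 0.971, adjusted 1). No value of the 9 separated tumors from spleens or from tdLNs, where 5.67% and 11.3% of all values did. Over all values and pairs, no adjusted p was below 0.05, and 66 of 423 unadjusted ones were.

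In tumors the values did not move together. In the αCSF1R tumor V12N-2 took 5.76% and V12D-2 4.26% of TRAC UMIs, the highest of the 12 libraries for both, while V12N-3 (2.03%), V12-3 (0.427%) and V12D-1 (0.444%) were at their lowest. In the control IgG tumor V12N-2 was at its lowest (1.56%), and V12N-3 was 2.67%. The IL-10-Fc and BF10 tumors had 3.65% and 3.91% V12N-3, 2.74% and 2.92% V12D-2, and 2.60% and 2.67% V12N-2, which lay within or near the range of spleens.

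**Figure D3:**
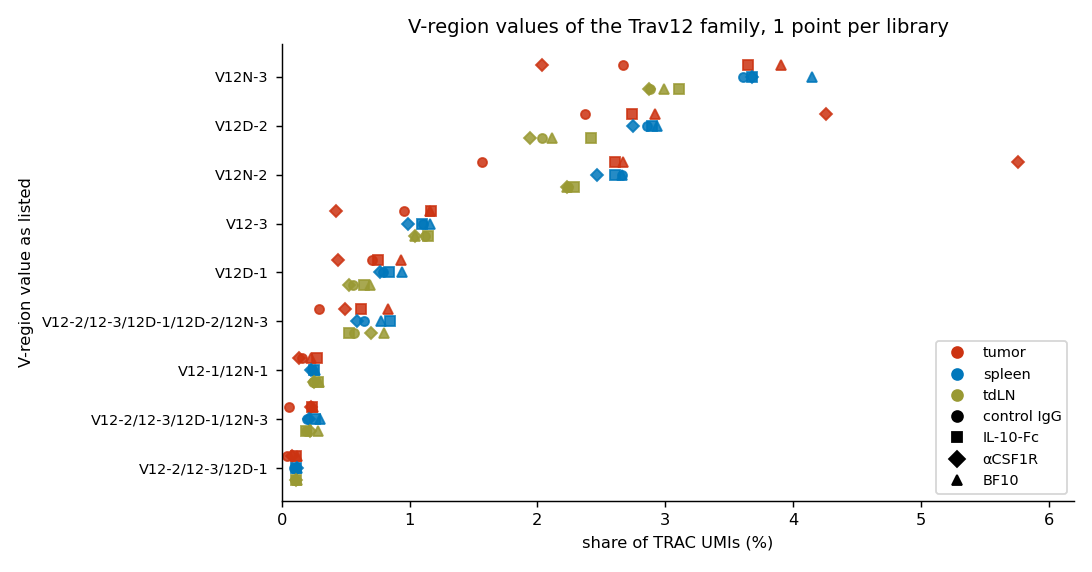
Share of TRAC UMIs in percent (horizontal axis, linear) for the 9 V-region values of the Trav12 family above a mean of 0.1%, 1 point per library, with colour for tissue and marker for treatment; slashes separate the genes of values that list several. For V12N-3, V12D-2, V12N-2 and V12D-1 the tdLN points lie left of all spleen points, and the αCSF1R tumor is far right for V12N-2 (5.76%) and V12D-2 (4.26%).

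The copies of the family, as listed, joined different parts of the J cluster. The 41 listed J genes were ranked from 1 (Traj58, nearest to the V genes) to 41 (Traj2), and the J position of a group of clonotypes is their mean rank. N copies (V12N-2 and V12N-3) had a mean J position of 26.0 to 26.7 over the 12 libraries (median 26.2). D copies had 17.2 to 18.5 (median 17.96), and undesignated genes had 16.4 to 19.4 (median 17.1). N lay above D in 12 of 12 libraries, by 8.36 ranks (SD 0.382, exact sign-flip permutation p = 0.000488, the smallest 12 libraries can give, adjusted 0.000732). It lay above the undesignated genes in 12 of 12, by 8.99 ranks (SD 0.641, same p and adjusted p). Undesignated genes and D copies were close: the former were lower in 11 of 12 libraries, by 0.624 ranks on average (exact sign-flip permutation p = 0.0176, adjusted 0.0211), and higher by 1.33 in the αCSF1R tumor.

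The D and N copies as listed cannot be placed along GRCm38 (D, N, undesignated, J genes), since exons of D and N counterparts are identical there. Exons of the undesignated genes differ from those of their D counterparts by 10 to 15 bases, but clonotypes listed as V12-2 lacked the TTG of that GRCm38 gene. How J position relates to place in the locus was therefore not tested. The contrast between the listed copies held value by value. V12N-2 had a median J position of 26.4 and V12N-3 of 26.2, while V12D-1 had 18.8, V12D-2 had 17.6, V12-3 had 17.1 and V12-2 had 17.1. V12-1V12N-1, which mixes an N and an undesignated gene, had 23.7. The 14 listed J genes nearest to the V side (Traj58 to Traj38) took 8.44% of V12N-3 and 9.52% of V12N-2 clonotypes, against 38.3% of V12D-2 and 40.04% of V12-3. The 14 farthest (Traj21 to Traj2) took 45.4% and 45.1% of the former pair, and 12.1% and 10.5% of the latter. Other TRAC chains lay between, with 27.7% and 27.2%.

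**Figure D4:**
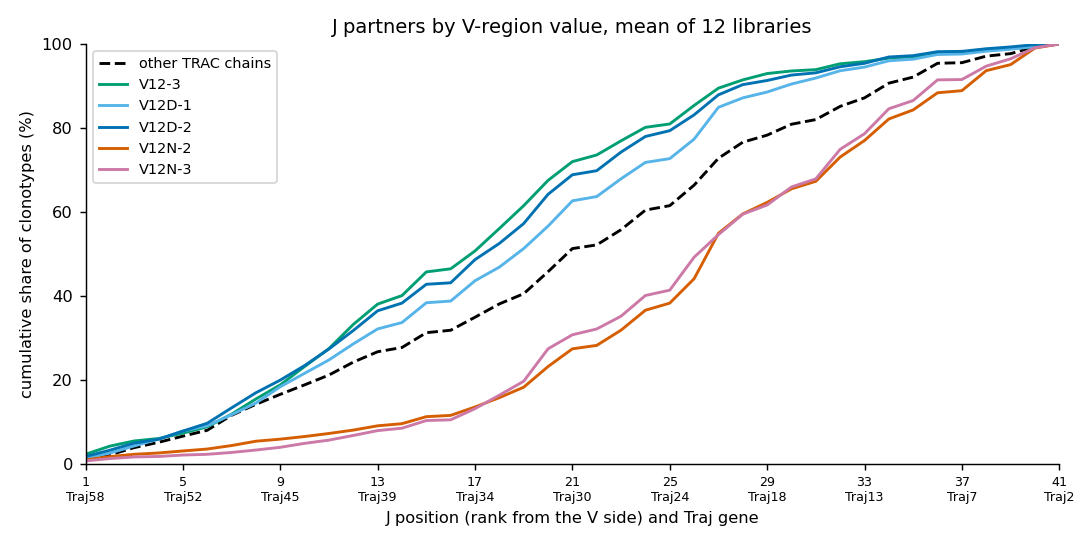
Cumulative share of clonotypes in percent along the 41 J genes, ranked from the V side (horizontal axis), as the mean of 12 libraries, for 5 V-region values and for all other TRAC chains (dashed). V12N-2 and V12N-3 run below the dashed line over the whole cluster, with 8.44% to 9.52% of clonotypes in the first 14 J genes and V12D-2 and V12-3 have 38.3% and 40.04% there.

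For the family as a whole these profiles nearly cancelled. Its mean J position was 22.0 to 22.6 per library, against 20.8 to 21.5 for other TRAC chains, and it was higher in 12 of 12 libraries (mean difference 1.05 ranks, range 0.637 to 1.82, exact sign-flip permutation p = 0.000488, adjusted 0.000732). Without V12N-2 and V12N-3, a choice made after the values were seen, the difference turned to -2.36 ranks.

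Of the 41 J genes, 29 (70.7%) differed in share between Trav12 and other TRAC clonotypes at an adjusted p below 0.05 (exact sign-flip permutation test over 12 libraries, Benjamini-Hochberg over 41 genes), 17 of them higher and 12 lower in the family. The 5 most used partners were Traj31 (6.57% of Trav12 clonotypes, 5.25% of others), Traj22 (6.52% and 6.41%), Traj23 (5.67% and 4.88%), Traj26 (4.32% and 4.67%) and Traj30 (4.16% and 5.51%). Of these, Traj31 was higher in 11 of 12 libraries and Traj23 in 12, Traj30 was lower in 12 of 12, and Traj22 and Traj26 did not pass the test (adjusted p = 0.532 and 0.107, exact sign-flip permutation). The 5 with the largest differences were Traj49 (1.89% in the family against 3.58%), Traj30, Traj31, Traj32 (3.73% against 2.42%) and Traj15 (4.10% against 3.15%). Traj49, number 7 of the 41 listed J genes from the V side, was lower in 12 of 12 libraries, and Traj32 and Traj15 were higher in 12 of 12. Traj15 took 7.04% of V12N-3 but 1.44% of V12D-2 clonotypes, and Traj49 took 0.443% and 3.67%.

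The CDR3s of the family mostly began alike. They opened with the residues CAL in 83.0% to 87.4% of Trav12 clonotypes per library, against 15.2% to 17.6% of other TRAC clonotypes, as the germline ends above encode. Their mean length was 13.5 to 13.7 residues per library, against 13.5 to 13.7 for other chains, and was shorter in 12 of 12 libraries by 0.011 to 0.128 residues (mean difference -0.0645, exact sign-flip permutation p = 0.000488, adjusted 0.000732). That difference is small beside the SD of lengths within a library, which was 1.51 to 1.72 residues in the family. Among other chains the SD was 1.98 in the αCSF1R tumor, above the family's 1.62, and 1.34 to 1.45 in the other libraries, below the family's in each, with no test made of the spread. Without V12N-2 and V12N-3 the difference in mean length was -0.00743 (exact sign-flip permutation p = 0.617).

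The shape of the length distribution differed more than its mean. CDR3s of 10 residues made up 3.36% of Trav12 clonotypes (range 2.58% to 3.90%) and 1.05% of others (0.773% to 1.16%), and those of 11 residues 6.26% and 4.10%, both higher in 12 of 12 libraries. CDR3s of 13 residues made up 19.99% (16.4% to 22.9%) and 26.3% (24.9% to 28.2%), lower in 12 of 12. Those of 12 residues (15.4% and 14.1%) were higher in 12 of 12 and those of 14 (27.5% and 31.2%) higher in 1. Those of 15 residues were 17.6% and 15.1%, higher in 11 of 12, and those of 16 were 7.29% and 6.01%, higher in 12 of 12. Each had an adjusted p of 0.000684 or 0.000977 over the 7 lengths tested (exact sign-flip permutation). The 10-residue CDR3s, such as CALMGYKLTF, were most frequent in V12N-3, with 6.93% of its clonotypes (5.07% to 8.68%), against 2.54% of V12D-2 and 1.54% of V12N-2. Their most frequent J genes were Traj31 (16.2%), Traj9 (14.5%) and Traj33 (10.5%). V12N-3 also had the shortest mean length of the 9 values, with a median of 13.2 residues over libraries, while V12-3 had 13.8 and V12N-2 had 13.7.

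**Figure D5:**
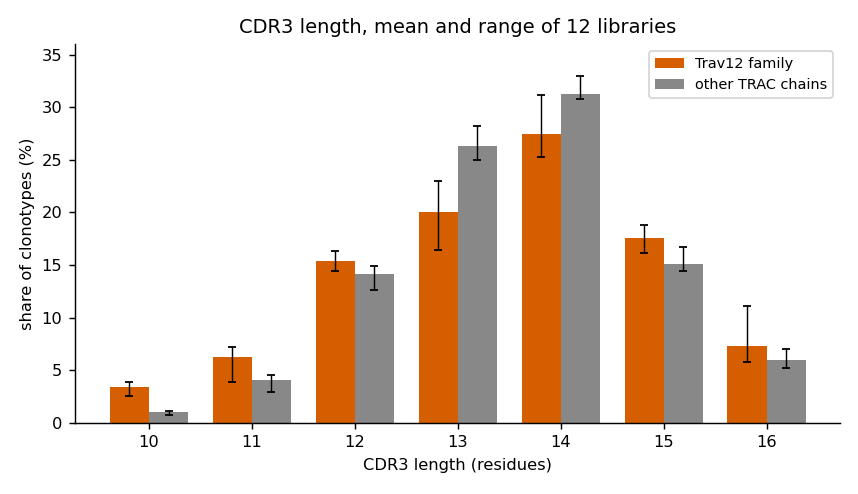
Share of clonotypes in percent (axis from 0) by CDR3 length in residues for the Trav12 family and other TRAC chains; bars are means of 12 libraries and whiskers are the lowest and highest library. The family has more CDR3s of 10, 11, 15 and 16 residues and fewer of 13 (19.99% against 26.3%).

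The most abundant Trav12 clonotypes of a tumor were traced in the other tissues. Of the 20 with the most UMIs in each tumor, 9 were listed in the spleen of the same treatment after control IgG, 16 after IL-10-Fc, 7 with αCSF1R and 18 with BF10. In spleens of the other treatments the numbers were 7 to 9, 13 to 14, 0 to 3 and 16 to 17. In tdLNs of the same treatment they were 8, 15, 3 and 19, against 4 to 8, 13 to 15, 1 to 3 and 16 to 18 in those of other treatments. The number in the spleen of the same treatment was above the range of the other treatments for IL-10-Fc, αCSF1R and BF10, most for αCSF1R (7 against at most 3), and equal to its upper end for control IgG. In tdLNs it was above that range for BF10 alone. The same was counted for the 20 largest clonotypes of other TRAC chains. In tdLNs of the same treatment 6, 15, 8 and 16 were listed, each above the range of other treatments (0 to 2, 4 to 7, 2 to 3 and 12 to 13). In spleens they numbered 3, 7, 4 and 13, against 1, 4 to 6, 1 to 4 and 13 to 14. Listing also depends on the depth of the library searched. TRAC UMIs in tdLNs were 101598, 137078, 65745 and 55901 in the order of treatments used above, and 109939 to 121278 in spleens. These counts were not adjusted for depth and were not tested. The smallest of the 20 had 14 to 24 UMIs in the family and 44 to 404 in other chains.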

How the data were processed

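CD8+ T cell RNA of 12 libraries (3 tissues, 4 treatments, 1 library each) was made into TCR libraries by the authors with a QIAseq kit, and reads were grouped by UMI in the vendor's portal, which assigned V, J and CDR3. The deposited UMI counts are those with at least 3 reads and are not normalized, and the deposited fraction of each clonotype is its share of a library and chain. The submitters' processing notes name mm10, that is, GRCm38. The germline set behind the assignments and the error correction are not given in the sources used here.

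TRAC counts were summed by TRAV family, V-region value and J gene, and shares were computed per library. Tissues were compared with an exact two-sided permutation test over libraries (70 regroupings) for all families and for all V-region values above 0.01%, and the family with other chains with an exact sign-flip test (4096 sign patterns), each with Benjamini-Hochberg adjustment. Treatments have 1 library per tissue and no test. Wilson intervals of 95% cover counting error only, since UMIs of 1 cell are not independent, and the labels do not tie libraries to animals, so p-values measure only the spread between these libraries. The V match of a CDR3 is its longest common start with a Trav12 end, the J match its longest common end with the germline J gene. Steps were tested on simulated data. Exact tests were computed by enumeration with numpy (2.4.6) under Python 3.11.15, and Wilson intervals used scipy (1.17.1). Tables came from pandas (2.3.3) and plots from matplotlib (3.10.9).

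The text names V-region values with a mean of at least 0.1% of TRAC UMIs, each library's clonotype of highest UMI count, the 5 listed in the most libraries, the 5 J genes with the largest share and the 5 with the largest difference, and up to 3 TRAV families above and below. The members and lists were chosen with earlier results of these data known. Alternatives are given at the end of the text. The other experiments of the study are not analysed here.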

Additional observations from a re-analysis of the deposited data

Results flagged for a closer look

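Over 42 groups of 4 libraries (14 measures in 3 tissues), 3 held a library far from the rest by Dixon's test, and chance flags about 1 in 20 groups. The share of TRAC clonotypes in the αCSF1R tumor was 14.8%, while the other tumors had 12.9% to 13.1%, and that library had 359 Trav12 clonotypes. V12N-3 took 4.15% of TRAC UMIs in the BF10 spleen and 3.60% to 3.68% in the other spleens. V12-2V12-3V12D-1V12N-3 took 0.0551% in the control IgG tumor and 0.233% to 0.248% in the other tumors.

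The share of clonotypes listed with 2 or more treatments, Trav12 minus other TRAC chains, had opposite signs between tissues. It averaged 1.29 percentage points in spleens, 0.751 in tumors and -1.50 in tdLNs, each sign in 4 of 4 libraries. The difference was 2.79 between spleens and tdLNs and 2.25 between tumors and tdLNs (exact permutation p = 0.0286 each, the smallest 4 against 4 can give, adjusted 0.0514 over 9 comparisons). With clonotypes defined by J and CDR3 nucleotides alone it averaged 0.784 in spleens and -2.19 in tdLNs, and -0.990 in tumors, where it was above 0 in 1 of 4 libraries. The share of clonotypes with 1 UMI also differed between the family and other chains, and its part in this was not tested.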

How the results depend on the processing

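Among the alternatives to values that answer a comparison, 103 kept direction and side of the threshold or moved by less than the spread, 18 moved further, 6 no longer passed and 4 turned. Spleens exceeded tdLNs in Trav12 share of TRAC UMIs by 2.04 to 2.76 percentage points over 10 alternatives, without overlap in each (adjusted exact permutation p = 0.0818 to 0.42). Tumors against spleens turned from -0.516 to 0.845 without clonotypes of at least 0.1%, and ranged from -1.37 to 0.448 when 1 treatment was left out, 0.448 without control IgG. Tumors against tdLNs ranged from 0.949 to 3.03. With treatment as a replicate block, the pairing left the differences as they were, and the smallest exact p is then 0.125. Averaged over the tissues of a treatment (4 values, exact permutation p = 0.125 at best), the differences were -0.0645 residues in CDR3 length, and 1.05 (family against other chains), 8.99 (N against undesignated), 8.36 (N against D) and -0.624 (undesignated against D) in J position. Without V12N-2 and V12N-3, chosen after seeing the data, length was -0.00743 and J position -2.36. Sharing by J and CDR3 nucleotides, also added later, was -0.799.

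The ratios to control IgG moved by more than their counting interval as follows. With clonotypes counted they were 0.983 (IL-10-Fc tumor), 1.13 (αCSF1R tumor), 0.999 (BF10 tumor) and 1.05 (BF10 spleen), and without clonotypes of at least 0.1% 0.989, 1.14 and 1.02 in the 3 tumors. With UMIs of at least 7 reads they were 1.33 (IL-10-Fc tumor), 1.40 (BF10 tumor), 1.12 (BF10 spleen) and 0.979 (BF10 tdLN). Among clonotypes of at least 2 UMIs they were 1.52 (BF10 tumor), 1.12 (BF10 spleen) and 0.945 (αCSF1R tdLN), and without the largest Trav12 clonotype 1.26 (αCSF1R tumor) and 1.51 (BF10 tumor).

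Of the 9 named V-region values, 4 did not overlap between tumors and tdLNs by clonotypes and 3 without clonotypes of at least 0.1%, against 0 by UMIs. Between spleens and tdLNs it was 5 by clonotypes and 3 with at least 7 reads, against 4. By UMIs, 11.3% of all V-region values did not overlap between tumors and tdLNs, and 29.8% between spleens and tdLNs. The shares over all values in the other settings were not counted. Differences that turned sign, in percentage points, were as follows. Tumor minus spleen by clonotypes was 0.259 for V12N-3, 0.0312 for V12-3, 0.0493 for V12D-1, 0.0526 for V12-2V12-3V12D-1V12D-2V12N-3, 0.00351 for V12-1V12N-1 and 0.0149 for V12-2V12-3V12D-1. Without clonotypes of at least 0.1% it was 0.180 for V12N-3, 0.0625 for V12-3, 0.0651 for V12D-1, 0.0174 for V12-1V12N-1, 0.0237 for V12-2V12-3V12D-1V12N-3 and 0.0109 for V12-2V12-3V12D-1. Tumor minus tdLN by clonotypes was 0.0265 for V12-3, 0.247 for V12-2V12-3V12D-1V12D-2V12N-3, 0.00394 for V12-2V12-3V12D-1V12N-3 and 0.0222 for V12-2V12-3V12D-1. Without clonotypes of at least 0.1% these were 0.0580, 0.00873, 0.0461 and 0.00833, and with at least 7 reads the last 3 were 0.0607, 0.00044 and 0.0129. Spleen minus tdLN of V12-2V12-3V12D-1 was 0.00733 by clonotypes and 0.0364 with at least 7 reads. The cause of these changes was not tested. Depth limits the αCSF1R tumor most, with 359 Trav12 clonotypes.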
